A study of Arabidopsis thaliana with 63 samples.

Results

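The comparison is between 2 triple mutants of Arabidopsis thaliana that lack the same histone variant, h2a.w-2 and h2a.w-1. It rests on 6 RNA-seq libraries of a series of 63 samples, 3 libraries labelled h2a.w-2 and 3 labelled h2a.w-1, with 3 WT libraries beside them for orientation. The features compared are those of the count tables, genes and transposable elements (TEs), whose mean normalized count reached 10 in either mutant after both tables were set to one scale. They number 19968 of 29961, of which 19306 are protein-coding genes (PCGs), 105 TE genes, 445 other genes and 112 TEs.

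All seedlings were Col-0 and 10 days old. The h2a.w-2 plants carry hta6-2, a frameshift made with CRISPR-Cas9, and the h2a.w-1 plants carry hta6-1, a T-DNA insertion allele (SALK_024544.32) that came with a rearrangement of chromosome 1. Both mutants also carry the same T-DNA insertions in HTA7 (GABI_149G05.01) and HTA12 (SAIL_667_D09), so the 2 lines differ by design in the HTA6 allele and in that rearrangement. WT carries none of these alleles. Each group is 1 line. The labels give neither the plants behind a library nor a growth or sequencing batch, so p-values measure the spread between these libraries, and line and batch cannot be told apart.

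H2A.W is a histone H2A variant of plants that marks constitutive heterochromatin, the compact and TE-rich part of the genome. It is encoded by HTA6, HTA7 and HTA12. A T-DNA insertion can cut a transcript or bring vector sequence and rearrangements with it, whereas a small CRISPR-Cas9 change leaves the gene otherwise in place. A segment present in extra copies usually raises the RNA of its genes in proportion, which is why a line with such a segment is compared with one that lacks it.

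The site of the hta6-2 change is shown because it is the base difference that sets this allele apart from the reference gene. HTA6 (AT5G59870, chromosome 5, 24115354 to 24116220 in TAIR10.1) is read from the minus strand, and the target is in its coding sequence at chr5:24116053-24116072, minus strand, coding bases 73 to 92. The 20 bases of the target are in lower case and the PAM, the 3 bases Cas9 needs beside its target, is in capitals.
HTA6 target: gtttcgaaatcgatgaaagcCGG
The methods place 1 extra G at 3 bases before the PAM. The next lines give coding bases 70 to 119 of the reference and the same stretch with that G, in capitals, put in by script.
HTA6, reference: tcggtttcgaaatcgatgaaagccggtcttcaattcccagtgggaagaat
hta6-2, built: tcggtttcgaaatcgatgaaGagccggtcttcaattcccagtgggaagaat
Read from the start codon, the reference frame has 150 codons before its stop, and the built hta6-2 frame has 65.

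The deposited means gave whole reads by library for 29881 features (99.7%), and libraries are called A, B and C within a group by decreasing size factor. Recovered reads ranged from 5812579 to 8346181 in the h2a.w-2-labelled libraries, from 6800695 to 9046881 in h2a.w-1 and from 6317597 to 9391308 in WT. A normalized count is a library's reads divided by its size factor, and every value by library below is one unless reads are named. Within a group, the median feature differed from the other libraries by 0.18 to 0.27 on the log2 scale in h2a.w-2, with library C farthest, by 0.14 to 0.20 in h2a.w-1 and by 0.16 to 0.17 in WT.

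RNA of the targeted genes was measured first. HTA6 stood at 279, 256 and 192 normalized counts in the h2a.w-2-labelled libraries, against 55.1, 51 and 47.5 in h2a.w-1, with a WT mean of 818 ± 83.5 (SD, n = 3). The 2 mutants did not overlap and both lay below every WT library. The log2 fold change was 2.23 (SE 0.20, adjusted p = 0.0016, limma). Fold changes throughout are h2a.w-2 over h2a.w-1, and adjusted p-values come from limma voom over all 19591 features fitted.

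HTA7 stood at 99.2, 72.9 and 79.0 in the h2a.w-2-labelled libraries, against 81.4, 79.3 and 92.7 in h2a.w-1 and a mean of 646 in WT. The mutants, which share this allele, overlapped, and the log2 fold change was 0.00 (SE 0.17, adjusted p = 0.99, limma). HTA12 stood at 25, 100 and 24.0 in the h2a.w-2-labelled libraries, against 16.1, 17.9 and 21.5 in h2a.w-1 and a mean of 93.2 ± 12.7 in WT (SD, n = 3). Library B labelled h2a.w-2 thus had HTA12 at the WT level, which goes against its label (log2 fold change of the 2 groups 1.16, adjusted p = 0.25 with it and 0.43, adjusted p = 0.41 without it, limma), while its HTA6 and HTA7 were at the level of the other 2. AT5G02570, which overlaps HTA12 on the opposite strand, was at 27.7, 29.0 and 21.2 in the h2a.w-2-labelled libraries, against 23.7, 7.55 and 11.3 in h2a.w-1. Directions below therefore concern libraries by their label, and where a count or call below changed without library B, the value without it is given.

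**Figure D1:**
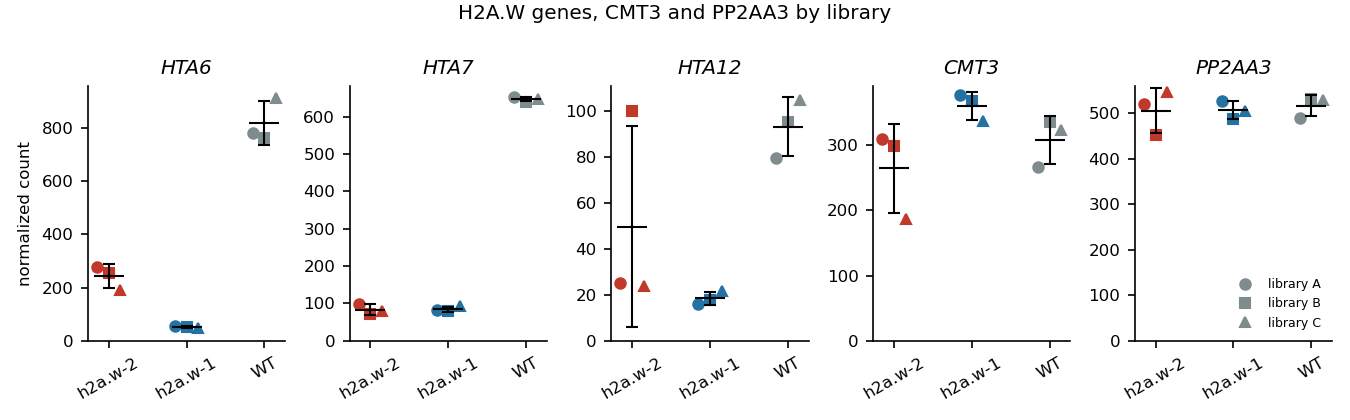
Normalized counts of HTA6, HTA7, HTA12, CMT3 and the reference gene PP2AA3 in the h2a.w-2-labelled libraries and h2a.w-1 and in WT. Points are libraries A, B and C, and bars give mean and SD (n = 3). HTA6 was 242 on average in h2a.w-2 and 51.2 in h2a.w-1, and 1 library labelled h2a.w-2 had HTA12 at 100.

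Reads were then compared over all features fitted, those with a mean of at least 10 over the 6 libraries. Of 19968 members, 19591 were fitted, 297 lay under that mean and 80 had no reads by library. A feature was called at an adjusted p under 0.05 with a fold change above 2. That gave 754 features higher and 371 lower in h2a.w-2, which is 5.74% of the features fitted, 3.85% higher and 1.89% lower. At an adjusted p under 0.05 with no limit on fold change there were 2958 features, 15.1%, with 1506 higher (7.69%) and 1452 lower (7.41%). The median log2 fold change over all features was -0.01. Without library B labelled h2a.w-2, 715 features were higher and 421 lower, and 908 of the 1125 features called were called again.

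The counts rested on h2a.w-1 libraries A and B more than on the others. Without h2a.w-1 library A, 358 features were higher and 234 lower, and without h2a.w-1 library B, 391 were higher and 261 lower. Leaving out h2a.w-1 library C gave 1028 called, 643 higher and 385 lower. Leaving out any 1 library labelled h2a.w-2 gave 1053 to 1136 called. Libraries of the 2 mutants did not overlap in 745 of the 754 features higher and 370 of the 371 lower, beside 37.5% of all features fitted. The calls were made on these same libraries, so this is no separate support for them. None of the 1125 features changed direction when a library was left out, but where libraries do not overlap the direction cannot change.

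WT lay nearer to h2a.w-2 for most of the called features. Its mean was nearer to h2a.w-2 than to h2a.w-1 in 591 of the 754 features higher in h2a.w-2 (78.4%) and in 321 of the 371 lower (86.5%), beside 57.8% of all features fitted. WT lay between the mutants in 619 of the 754 and 302 of the 371, beside 8048 of all 19591 features fitted. Called features lie far apart between the mutants, which leaves more room for WT between them. A principal component analysis of 9 libraries placed h2a.w-1 apart from both others: component 1, with 40.8% of the variance, ran from -41.7 to -30.4 in h2a.w-2 and from 48.2 to 57.2 in h2a.w-1, with WT from -19.4 to -16.5.

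**Figure D2:**
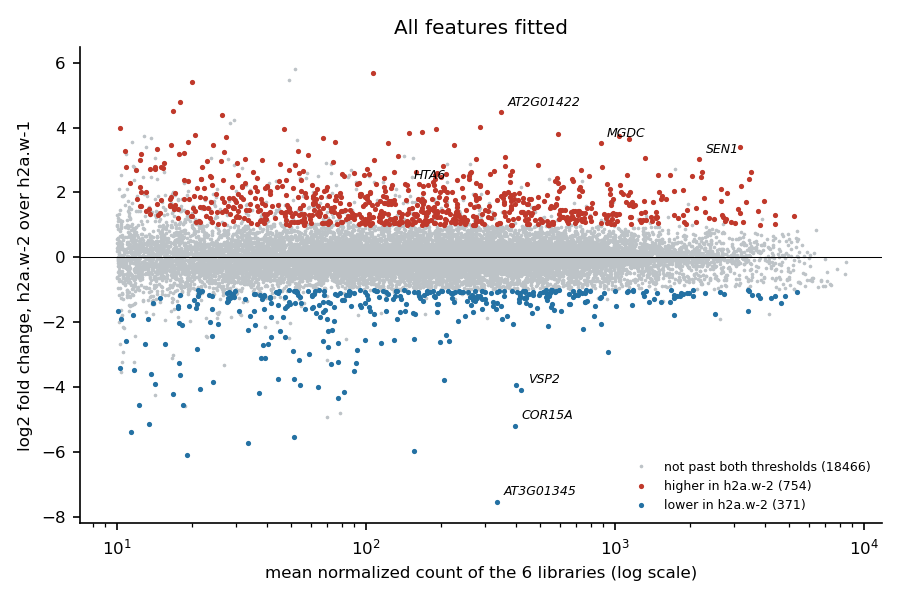
Log2 fold change, h2a.w-2 over h2a.w-1, against the mean normalized count of the 6 libraries (log scale) for 19591 features. Red points are the 754 features called higher in h2a.w-2 and blue points the 371 called lower. The largest decrease, AT3G01345, stands at -7.54.

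Chromosome 1 was examined because the h2a.w-1 line is described as carrying part of its right arm in extra copy. The study saw raised coverage of that segment in earlier published BS-seq and RNA-seq reads of h2a.w-1. From crosses with WT it also recovered hta6-1 plants with either normal or doubled dose of it. The labels do not give the dose in the plants behind these libraries, and it was not tested here. The duplicated segment in the study is longer than the region taken here, which runs from AT1G66100, which starts at 24605538, to AT1G09207, which ends at 26772881, where the study placed TEs of raised copy number. It holds 515 genes of the tables, of which 394 were members and 381 were fitted. An extra dose in h2a.w-1 would place their log2 fold changes below 0. Their median was 0.01, with quartiles of -0.27 and 0.30, beside -0.01, -0.25 and 0.25 for all features, and 184 of 381 were below 0.

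In that region 22 genes (5.77%) were called higher in h2a.w-2 and 7 (1.84%) lower, beside 3.85% and 1.89% of all features. Without library B labelled h2a.w-2, 25 were higher and 9 lower. The median log2 ratio to WT was 0.01 for h2a.w-2 and -0.02 for h2a.w-1. The region took 20065, 20434 and 20332 reads per 1000000 recovered reads (RPM) in the h2a.w-2-labelled libraries, against 19628, 19605 and 19463 in h2a.w-1, with 18765 to 19091 in WT. The mutants did not overlap, with h2a.w-2 higher by 1.04 times (two-sided exact permutation p = 0.1, the smallest that 3 against 3 can give). Scaled by size factors, the difference was 1.06 times (exact permutation p = 0.3).

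The best expressed genes there were at like levels in both mutants, with exceptions. UPL2, a ubiquitin ligase, averaged 5086 ± 1018 in h2a.w-2 and 4878 ± 1209 in h2a.w-1 (SD, n = 3 each). MLP34, a major latex protein-like gene, averaged 4545 ± 584 in h2a.w-2 and 4574 ± 875 in h2a.w-1. The ribosomal protein gene AT1G67430 had a log2 fold change of -0.11 and HPR, the hydroxypyruvate reductase of photorespiration, one of -0.56, and neither passed (adjusted p = 0.60 and 0.26, limma). KCS6, an elongase of cuticular wax synthesis, was higher in h2a.w-2 by 0.62 (adjusted p = 0.013). RAV2, a transcription factor that delays flowering, was higher by 2.21, at 3489, 6735 and 5677 in h2a.w-2, against 1332, 1406 and 729 in h2a.w-1.

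The larger differences of the region went both ways. RTFL21, of the ROTUNDIFOLIA-like small peptide family, was higher by 2.64, SUFE2, of plastid iron-sulphur cluster assembly, by 2.39, and AT1G70985 by 2.48. AT1G70640 was lower by 2.69, at 3.58, 3.74 and 4.23 in h2a.w-2, against 28.8, 29.3 and 23.7 in h2a.w-1. CMPG1 (2.47) and UMAMIT36 (-2.42) were not called. CMT3 (AT1G69770), the CHG methyltransferase inside the region, was at 309, 298 and 186 in the h2a.w-2-labelled libraries, against 377, 367 and 337 in h2a.w-1 and a mean of 309 in WT. The libraries did not overlap, and the log2 fold change of -0.45 did not pass (SE 0.18, adjusted p = 0.14, limma). By RT-qPCR, the study reports CMT3 RNA significantly raised over WT in h2a.w-1 with extra copies of the gene.

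Along the whole chromosome the running median over 51 genes stayed between -0.23 and 0.23, and within the region between -0.10 and 0.23. The run of consecutive genes most lowered in h2a.w-2, chosen on the fold changes and so untested, lay outside the region, from AT1G50900 to AT1G51460 (18866197 to 19081451). Its 36 genes had a median of -0.30, with 7 called lower and 0 higher. With a stricter offset the search returned 3 genes, AT1G52000 to AT1G52040. Shares called by chromosome ran from 4.94% on chromosome 5 to 6.36% on chromosome 1.

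**Figure D3:**
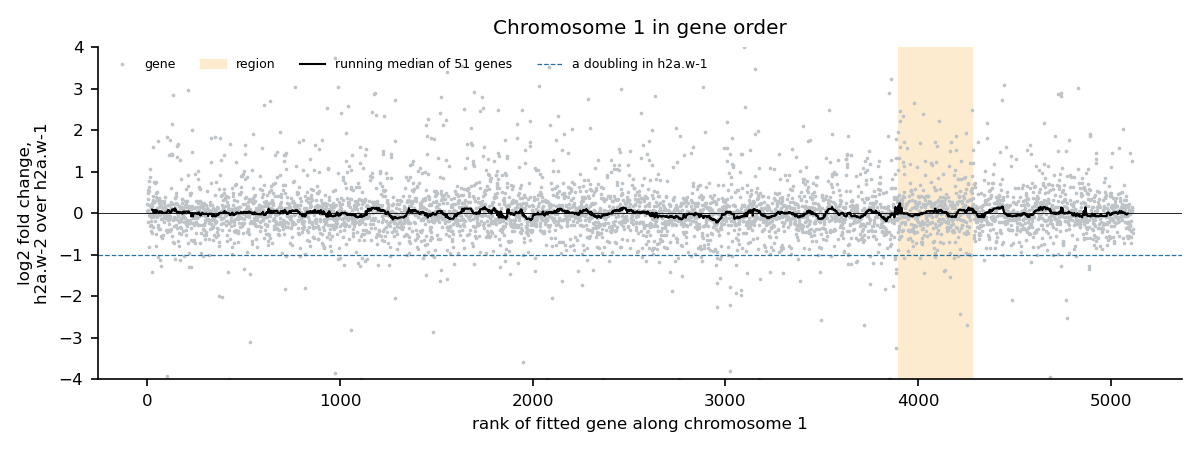
Log2 fold change of 5114 fitted genes of chromosome 1 in gene order, limited to ±4 for display. The shaded band is the region with 381 fitted genes, the black line is the running median of 51 genes, and the dashed line marks -1, where a doubling in h2a.w-1 would lie. The running median stays between -0.23 and 0.23.

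Several features were nearly silent in 1 mutant. In 26 members no library labelled h2a.w-2 exceeded 3 reads while every h2a.w-1 library did, and in 17 members the reverse held. WT was also at or below 3 reads in every library in 12 of the 26, and in 3 of the 17.

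AT3G01345 (chromosome 3, 129138 to 130749) showed the widest gap of all features fitted. It had 3, 4 and 2 reads in the h2a.w-2-labelled libraries, against 783, 613 and 685 reads in h2a.w-1 and 1, 2 and 0 reads in WT. Its RNA was thus nearly confined to h2a.w-1 among these libraries (log2 fold change -7.54, SE 0.47, adjusted p = 0.00088, limma). The transcribed pseudogene AT2G16367 had 0 reads in each library labelled h2a.w-2, against 40, 29 and 47 in h2a.w-1, at least 11.8-fold lower with a floor of 3 reads per library. AT1G27565 also had 0 reads in h2a.w-2, against 18, 30 and 22 in h2a.w-1, at least 7.04-fold lower.

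AT1G31690, AT1G06100 and AT2G30766 were of the same kind. AT1G31690 had 2, 14 and 2 reads in h2a.w-2, against 351, 315 and 284 in h2a.w-1. AT1G06100 had 1 read in all of h2a.w-2, against 85 in h2a.w-1, a ratio of 78.9 (95% counting interval 13.8 to 3151). AT2G30766 had 2 reads against 191, a ratio of 88.6 (95% counting interval 24.2 to 737), with 0 in WT. Its call was lost without any 1 of the h2a.w-2-labelled libraries or without h2a.w-1 library B (adjusted p up to 0.13). The intervals are exact binomial and cover counting error only.

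MES18, of the methylesterase family, had 0, 3 and 5 reads in h2a.w-2, against 74, 115 and 114 in h2a.w-1. PHE1 (PHERES1), a MADS-box gene known for imprinted expression in endosperm, had 3, 0 and 0 reads in h2a.w-2, against 25, 23 and 25 in h2a.w-1. WSD1, a wax ester synthase, had 2, 2 and 0 reads in h2a.w-2, against 49, 35 and 29 in h2a.w-1. All 3 had under 10 normalized counts on average in WT.

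In the other direction, AT2G01422, a non-coding RNA on chromosome 2 (183940 to 184734), had 763, 680 and 483 reads in the h2a.w-2-labelled libraries, against 22, 32 and 44 in h2a.w-1. WT had 0 reads, so that both mutants stood above WT and h2a.w-2 the more (log2 fold change 4.49, SE 0.27, adjusted p = 0.00088, limma). AT2G43140 was at 201, 214 and 195 in h2a.w-2, against 5.09, 0 and 28.3 in h2a.w-1, with the largest positive log2 fold change among the features called, 5.69. PYL6, a receptor of abscisic acid, was at 266, 286 and 385 in h2a.w-2, against 16.1, 16.0 and 36.2 in h2a.w-1, and ATPMEPCRD, a pectin methylesterase gene, at 454, 462 and 709 against 25.4, 35.9 and 38.4. WT averaged 236 for PYL6 and 240 for ATPMEPCRD.

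Of the same set, AT3G21080 was higher by 4.78, the transcribed pseudogene AT4G11500 by 4.52 and WRKY59 by 4.00. Calls of AT3G21080 and WRKY59 were lost without h2a.w-1 library A or B, and that of WRKY59 also without library A or B labelled h2a.w-2. CYP82C2, of the indole-carbonyl nitrile pathway, had 9, 18 and 68 reads in h2a.w-2, against 0 in each h2a.w-1 library, at least 13.8-fold higher. WT had 1 read of CYP82C2, so that h2a.w-2 stood apart from both. Its call was lost without library B labelled h2a.w-2 (adjusted p = 0.11, limma) and without any 1 of the h2a.w-1 libraries.

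**Figure D4:**
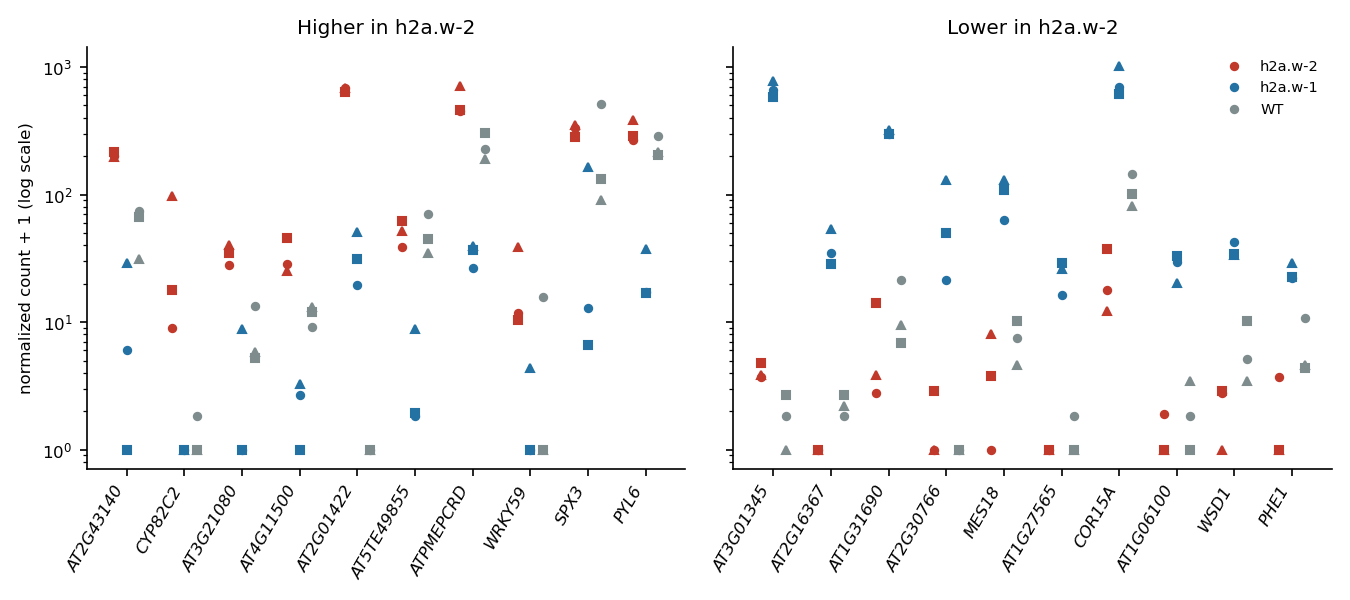
Normalized count plus 1 (log scale) in each library of h2a.w-2, h2a.w-1 and WT, for the 10 largest positive and the 10 largest negative log2 fold changes among called features whose libraries do not overlap. Circles, squares and triangles are libraries A, B and C. AT3G01345 lies between 2.68 and 3.74 normalized counts in h2a.w-2 and between 579 and 774 in h2a.w-1.

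Part of the cold-regulated genes was lower in h2a.w-2. This list and those below were chosen with earlier results of these data known, so their counts describe these libraries only. CBF transcription factors bind the CCGAC element of cold-inducible genes, whose COR and KIN products protect cells from freezing and drought. Of 12 fitted genes of this list, 6 were called lower and 0 higher, with a median log2 fold change of -1.22, beside 1.89% lower and a median of -0.01 over all features. The other 6 were not called and went both ways, CBF2 (2.32), CBF1 (1.22), COR47 (0.45), GolS3 (0.05), ERD10 (-0.27) and COR413IM1 (-0.79). The count stayed between 5 and 7 when any 1 library was left out, and was 6 without library B labelled h2a.w-2.

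COR15A, a chloroplast-protecting protein, was at 17.0, 36.4 and 11.3 in h2a.w-2, against 694, 617 and 1015 in h2a.w-1 and a mean of 108 in WT. WT thus lay between the mutants, and the log2 fold change was -5.19 (SE 0.45, adjusted p = 0.0016, limma). Its neighbour COR15B was at 295, 249 and 123 in h2a.w-2, against 1672, 1658 and 1641 in h2a.w-1. LTI78 (RD29A) was at 405, 338 and 334 in h2a.w-2, against 1155, 1017 and 1722 in h2a.w-1. None of these 3 genes overlapped between the mutants.

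KIN2 averaged 1704 ± 464 in h2a.w-2 and 5177 ± 318 in h2a.w-1, and KIN1 averaged 70.8 ± 42.3 in h2a.w-2 and 351 ± 84.5 in h2a.w-1 (SD, n = 3 each). DREB1A (CBF3), one of the regulators, averaged 30.9 in h2a.w-2 and 95.5 in h2a.w-1, with 13.7 in WT, so that both mutant means were above the WT mean. KIN1 lost its call without h2a.w-1 library A (adjusted p = 0.05005, limma). COR15A with COR15B and KIN1 with KIN2 are close copies, and reads that fit both copies were discarded.

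Of 11 fitted abscisic acid response genes, 4 were called lower and 0 higher, beside 1.89% lower over all features. The median was -1.17, and 7 did not pass, among them ABF3 (0.01), RD22 (-0.09) and ABI1 (-0.10). LTP4, a lipid transfer protein, was at 3.58, 4.67 and 1.41 in h2a.w-2, against 66.2, 44.4 and 103 in h2a.w-1. LTP3 (-2.63), the calcium-binding caleosin RD20 (-1.76) and the phosphatase HAI1 (-1.51) were the others called. LTI65 (RD29B) was at 1.79, 0.934 and 2.82 in h2a.w-2, against 7.63, 13.2 and 73.5 in h2a.w-1. Its libraries did not overlap, but its spread in h2a.w-1 was wide and it was not called (adjusted p = 0.13, limma).

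The 300 bases before the annotated start of COR15A, LTI78, LTI65 and SPX3 are shown as examples of genes whose windows hold the motifs searched. They were picked for that, and LTI65 was not called. They are read from TAIR10.1, 5′ to 3′ on the strand of the gene. In the first 2, capitals mark CCGAC on either strand. The windows are chr2:17712331-17712630 (minus), chr5:21240417-21240716 (plus), chr5:21236721-21237020 (plus) and chr2:18606110-18606409 (plus).
COR15A: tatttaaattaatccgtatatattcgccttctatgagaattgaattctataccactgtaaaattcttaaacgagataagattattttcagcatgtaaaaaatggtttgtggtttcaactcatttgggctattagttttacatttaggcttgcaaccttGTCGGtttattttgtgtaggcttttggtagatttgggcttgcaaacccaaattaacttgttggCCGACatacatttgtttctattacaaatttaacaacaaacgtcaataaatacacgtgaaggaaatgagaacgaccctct
LTI78: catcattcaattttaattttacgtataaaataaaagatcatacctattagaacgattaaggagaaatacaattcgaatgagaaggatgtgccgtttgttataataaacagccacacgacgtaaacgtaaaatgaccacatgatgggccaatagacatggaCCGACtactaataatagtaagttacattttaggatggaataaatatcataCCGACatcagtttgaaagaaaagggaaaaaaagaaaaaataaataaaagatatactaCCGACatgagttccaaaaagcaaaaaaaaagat
In the next, capitals mark ACGTG on either strand, the core of the abscisic acid response element.
LTI65: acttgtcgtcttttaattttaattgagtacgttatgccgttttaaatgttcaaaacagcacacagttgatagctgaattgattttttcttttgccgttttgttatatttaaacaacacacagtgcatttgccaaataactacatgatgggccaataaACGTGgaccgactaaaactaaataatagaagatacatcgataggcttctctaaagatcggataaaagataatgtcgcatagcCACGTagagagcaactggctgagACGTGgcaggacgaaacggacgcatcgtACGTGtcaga
In the last, capitals mark GNATATNC, the element bound by PHR1, the regulator of phosphate starvation genes.
SPX3: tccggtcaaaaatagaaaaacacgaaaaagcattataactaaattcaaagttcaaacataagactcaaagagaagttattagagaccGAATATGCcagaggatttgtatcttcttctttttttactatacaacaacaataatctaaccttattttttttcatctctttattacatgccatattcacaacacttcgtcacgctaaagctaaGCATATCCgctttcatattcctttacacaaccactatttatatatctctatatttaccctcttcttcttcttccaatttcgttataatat

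CCGAC was found in 2 places for COR15A and in 3 for LTI78, ACGTG in 4 for LTI65 and GNATATNC in 2 for SPX3. Both strands were searched, a palindromic CACGTG counts on each, and a CCGAC and an ACGTG may share bases. LTI65 also holds 1 CCGAC. In windows of this length CCGAC was present for 59 of 366 PCGs called lower (16.1%) and 109 of 732 called higher (14.9%), beside 15.0% of all 18970 PCGs fitted. ACGTG was present for 36.6% of those lower, 29.0% of those higher and 26.3% of all. GNATATNC was present for 5.46% of those lower, 11.6% of those higher and 6.58% of all. By list, CCGAC was present for 5 of 12 cold-regulated genes, ACGTG for 6 of 11 abscisic acid genes and GNATATNC for 1 of 8 phosphate genes, SPX3 itself. ACGTG was also present for 7 of the 12 cold-regulated genes, so it was not particular to the abscisic acid list. LTP3, LTP4 and HAI1, called lower, hold no ACGTG in this window. KIN1, KIN2 and DREB1A, called lower, hold no CCGAC in it, while GolS3 and COR413IM1, not called, do. These shares describe letters in a window and were not tested.

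Jasmonate genes did not move as a group. Of 15 fitted, 2 were called lower and 1 higher, with a median of 0.01, beside 1.89% lower and 3.85% higher over all features. VSP2, a vegetative storage protein induced by jasmonate, was at 43.8, 44.8 and 48.0 in h2a.w-2, against 1018, 829 and 547 in h2a.w-1 and a mean of 78.5 in WT (log2 fold change -4.08, adjusted p = 0.0013, limma). VSP1 was lower by 1.39 and AOC1, an allene oxide cyclase of jasmonate synthesis, higher by 1.77. The calls of VSP1 and AOC1 were lost without h2a.w-1 library A, that of VSP1 also without library A labelled h2a.w-2, and that of AOC1 also without h2a.w-1 library B or library B labelled h2a.w-2.

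Most of the aliphatic glucosinolate genes were lower in h2a.w-2. These genes make sulphur-rich defence compounds from methionine, under the MYB28, MYB29 and MYB76 regulators. Of 10 fitted, 6 were called lower and 0 higher, with a median of -1.12, beside 1.89% lower over all features. MYB29 was at 24.1, 57.9 and 11.3 in h2a.w-2, against 209, 176 and 116 in h2a.w-1. CYP79F1, which acts on chain-elongated methionine, averaged 345 in h2a.w-2 and 1413 in h2a.w-1. CYP83A1 (-1.19), MAM1 (-1.05), FMO GS-OX1 (-1.35) and MYB76 (-3.41) were the others called, and MYB28 (-0.35) stayed under the fold threshold. WT means were nearer to h2a.w-2 in 9 of the 10, beside 57.8% of all features fitted. Without h2a.w-1 library A the count fell to 2, without h2a.w-1 library B to 3 and without library C labelled h2a.w-2 to 4, and it was 6 without library B labelled h2a.w-2.

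Genes of the cuticle formed a list that was added after the values were seen, and its count describes these libraries only. Of 19 fitted, 4 were called lower and 0 higher, beside 1.89% lower over all features. In each fit that left out 1 library, 4 of 19 remained. CER1, of alkane formation in wax, was at 60.8, 48.6 and 32.4 in h2a.w-2, against 623, 617 and 1020 in h2a.w-1 and a mean of 113 in WT. MYB106, a regulator of epidermal cell shape and cutin, had a log2 fold change of -2.67, CYP77A6, of cutin monomer synthesis, one of -1.90, and WSD1 one of -4.56. Genes of very-long-chain fatty acid elongation went the other way at adjusted p under 0.05 without passing the fold threshold: KCS1 (0.78), KCS6 (0.62) and CER2 (0.72).

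Most of the phosphate starvation genes were higher in h2a.w-2. SPX proteins sense cellular phosphate, PHT1;4 imports it, and MGDC (MGD3) and SQD2 replace phospholipids with galactolipids and sulpholipids. Of 8 fitted, 6 were called higher and 0 lower, with a median of 1.72, beside 3.85% higher over all features. Without library B labelled h2a.w-2, 6 remained. SPX3 was at 331, 282 and 350 in h2a.w-2, against 11.9, 5.66 and 163 in h2a.w-1. MGDC was at 1646, 1409 and 1377 in h2a.w-2, against 46.6, 78.3 and 719 in h2a.w-1. SPX1 was at 5697, 5725 and 6762 in h2a.w-2, against 1349, 1553 and 2796 in h2a.w-1.

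In each of these 3 genes h2a.w-1 library C stood above its 2 fellows, and the mutants still did not overlap. WT varied too, with MGDC at 3538, 821 and 1019. Called besides were SQD2 (1.48), PAP17 (1.39), an acid phosphatase, and PHT1;4 (1.70). Without h2a.w-1 library A or B only 1 of 8 was called, SPX1, and without h2a.w-1 library C 7 were. AT5G03545, one of the features without reads by library, had a deposited mean 4.25 times as high in h2a.w-2, at 7971 against 1876 in h2a.w-1, with no test.

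Of 21 fitted stress-induced ERF, WRKY, ZAT and touch genes, 9 were called higher in h2a.w-2 and 0 lower, beside 3.85% higher over all features. Their median was 1.83. These are early genes that respond to wounding, handling and pathogens. ERF-1 was at 181, 246 and 337 in h2a.w-2, against 69.5, 69.9 and 66.7 in h2a.w-1. WRKY22 was at 164, 350 and 207 in h2a.w-2, against 51.7, 48.1 and 42.9 in h2a.w-1. Neither gene overlapped between the mutants.

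In many others, library B labelled h2a.w-2 led its group. TCH4, a touch-induced xyloglucan endotransglucosylase, was at 634, 3118 and 1480 in h2a.w-2, against 306, 265 and 547 in h2a.w-1. STZ (ZAT10) was at 671, 2426 and 518 in h2a.w-2, against 278, 281 and 123 in h2a.w-1. RRTF1, not called (adjusted p = 0.16, limma), had 298 in library B beside 10.7 and 2.82 in the other libraries labelled h2a.w-2, against 0 in each h2a.w-1 library. WRKY18, TCH2, TCH3, ZAT6 and AT5G51190 were also called. Without library B labelled h2a.w-2 the count was again 9 but of other members, since TCH2 and TCH4 were lost and RRTF1 and CML38 were called. It was 6 without library A, and 3, 2 and 3 without h2a.w-1 libraries A, B and C in turn. Mean WT levels were nearer to h2a.w-2 in all 21, beside 57.8% of all features fitted. Other lists ranged from 4 of 17 anthocyanin and flavonoid genes and 6 of 19 clock genes to 8 of 8 phosphate starvation genes.

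Genes of the response to low oxygen were compared in a list added after the values were seen. Of 19 fitted, 12 were called higher and 0 lower, beside 3.85% higher over all features. The median was 1.69, and WT was nearer to h2a.w-2 in 18, beside 57.8% of all features fitted. LBD41, a transcription factor of the core response, was at 445, 600 and 433 in h2a.w-2, against 109, 133 and 120 in h2a.w-1, with a WT mean of 829 ± 14.3 (SD, n = 3). Both mutants were below WT in this gene, h2a.w-1 the more. AT5G39890 and AT5G15120, plant cysteine oxidases that sense oxygen, were higher by 1.99 and 1.92. ADH1, alcohol dehydrogenase, was at 341, 356 and 915 in h2a.w-2, against 138, 145 and 132 in h2a.w-1. Its call was lost without any 1 of the h2a.w-1 libraries. Without h2a.w-1 library A the count was 7, and without library B labelled h2a.w-2 it was 11, with HB1 lost.

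Genes induced in darkness and at low sugar, again a list added after the values were seen, were higher in 7 of 16 fitted and lower in 0. Their median was 1.34, and 3.85% of all features were called higher. WT was nearer to h2a.w-2 in 7 of the 16. SEN1 (DIN1) was at 1653, 2318 and 7959 in h2a.w-2, against 410, 309 and 483 in h2a.w-1. DIN10, a raffinose synthase-like gene, was at 2442, 4671 and 11618 in h2a.w-2, against 924, 787 and 789 in h2a.w-1. BCAT-2, of branched-chain amino acid breakdown, was at 215, 319 and 973 in h2a.w-2, against 42.4, 33.0 and 87.0 in h2a.w-1. Library C labelled h2a.w-2 was the highest in each. The count was 4 without it, 8 without library B labelled h2a.w-2 (TPS11 lost, IVD and TPS10 added), 11 without library A, and 3, 3 and 4 without h2a.w-1 libraries A, B and C in turn.

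Nitrogen genes divided. Of 6 fitted nitrate genes, 2 were called higher and 0 lower, with a median of 0.92, beside 3.85% higher over all features. ASN1, the asparagine synthetase that is raised in the dark, was at 1036, 1600 and 6171 in h2a.w-2, against 490, 260 and 435 in h2a.w-1. The transporter NRT1.1 was higher by 1.09 and the reductase NIR1 lower by 0.71, under the fold threshold. Neither of the 2 calls held without h2a.w-1 library C. That of ASN1 was also lost without h2a.w-1 library A or B, and that of NRT1.1 without library C labelled h2a.w-2.

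**Figure D5:**
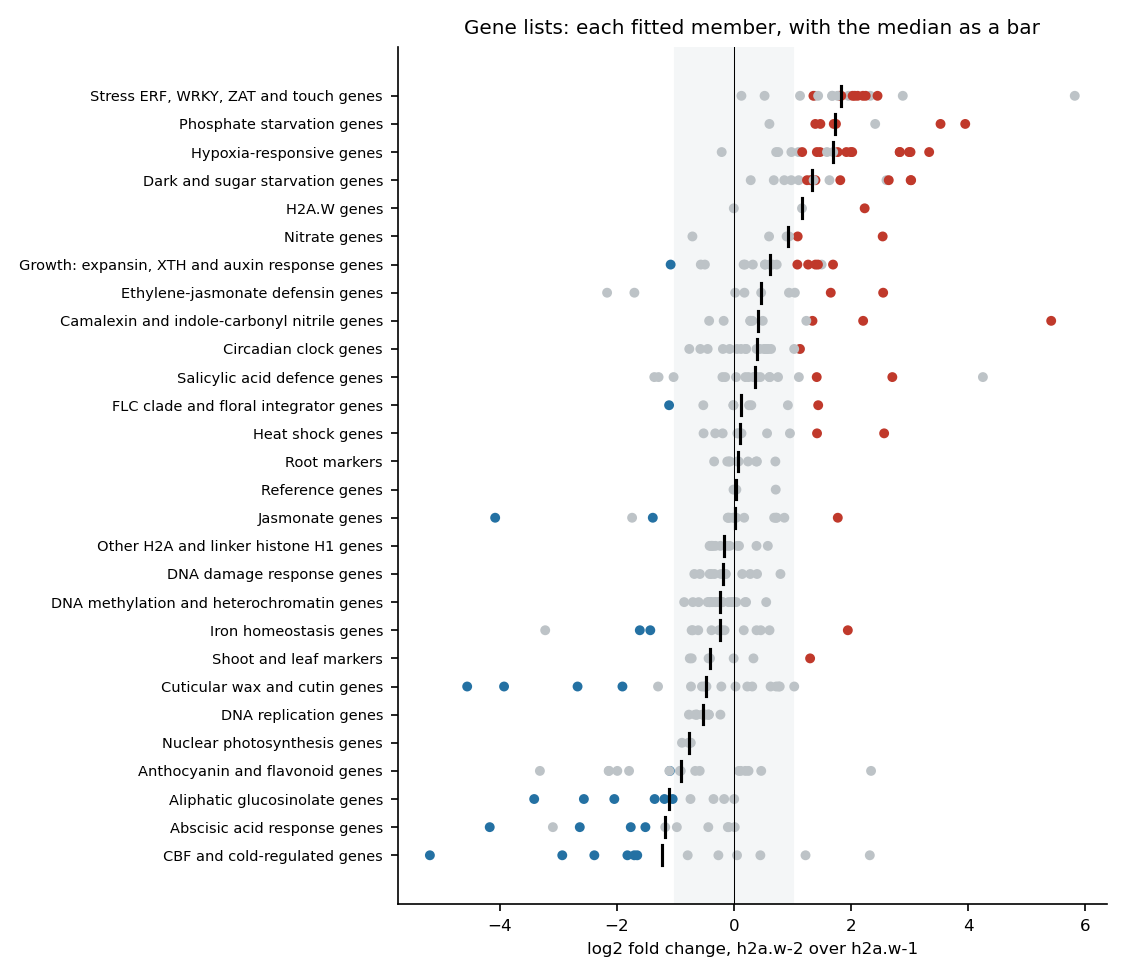
Log2 fold change, h2a.w-2 over h2a.w-1, of each fitted member of 28 gene lists with at least 3 fitted members, ordered by median (black bars). Red points were called higher in h2a.w-2, blue points lower, and grey points did not pass both thresholds. Cold-regulated, abscisic acid and aliphatic glucosinolate genes stand at the low end, with medians of -1.22, -1.17 and -1.12, and stress, phosphate and hypoxia genes at the high end, with 1.83, 1.72 and 1.69. The hypoxia, dark and sugar, and cuticle lists were added after the values were seen. The others were chosen with earlier results of these data known, so all places describe these libraries only.

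The counts of 3 defence lists stand beside 3.85% of all features called higher. Of 19 salicylic acid genes, 2 were called higher, EDS16 (ICS1), of salicylic acid synthesis, by 1.41 on the log2 scale, and WRKY38. Without library B labelled h2a.w-2, ACD6 was called lower besides. PR1 had a log2 fold change of 4.25 that did not pass (adjusted p = 0.065, limma). Of 9 ethylene-jasmonate defensin genes, ORA59 and AZI1 were called higher, and each kept its call in 1 of the 6 fits that left out a library, neither of them without library B labelled h2a.w-2. Of 10 camalexin and indole-carbonyl nitrile genes, CYP82C2, AT1G26380 and GSTF6 were called higher, and only AT1G26380 without library B labelled h2a.w-2. GSTF6 kept its call in 1 of those 6 fits. Of 17 anthocyanin and flavonoid genes, with a median of -0.91, F3H alone was called, lower in h2a.w-2, beside 1.89% lower over all features. It was lost without h2a.w-1 library B or C and without any 1 of the h2a.w-2-labelled libraries, and without h2a.w-1 library B 3 genes of the list were called lower.

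Growth, flowering and clock genes were mixed, and their counts stand beside 3.85% higher and 1.89% lower over all features. Of 17 expansin, XTH and auxin response genes, 5 were called higher and 1 lower, and 4 and 1 without library B labelled h2a.w-2, where IAA1 was lost. BAS1, which inactivates brassinosteroids, was at 253, 225 and 257 in h2a.w-2, against 98.4, 85.0 and 85.9 in h2a.w-1. GH3.3 (1.39), XTH4 (1.27), SAUR9 (1.69) and IAA1 (1.08) were higher and EXPA5 (-1.08) lower. AGL20 (SOC1), an activator of flowering, was at 316, 353 and 378 in h2a.w-2, against 647, 781 and 829 in h2a.w-1. FLC, its repressor, was at 29.5, 59.8 and 46.5 in h2a.w-2, against 15.3, 13.2 and 19.2 in h2a.w-1. These 2 of 8 genes were the ones called in that list, FLC no longer without library B labelled h2a.w-2 (adjusted p = 0.073, limma), without library C labelled h2a.w-2 or without any 1 h2a.w-1 library. Of 19 clock genes LCL1 alone was called, higher by 1.13, and its call was lost without any 1 h2a.w-1 library or without library C labelled h2a.w-2.

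Metal and heat genes gave 3 and 2 calls, where 5.74% of all features were called, 3.85% higher and 1.89% lower. Of 16 iron genes, the nicotianamine synthase NAS3 was higher by 1.94, while NAS1 and the peptide gene AT1G47400 were lower by 1.61 and 1.43. Of 10 heat shock genes, HSFA7A and HSFB2A were higher by 2.56 and 1.42. NAS3 lost its call without h2a.w-1 library A, HSFB2A without any 1 h2a.w-1 library, and AT1G47400 kept its call in 1 of the 6 fits that left out a library. Of 4 fitted nuclear photosynthesis genes none was called and 3 were lower at adjusted p under 0.05 without reaching 2-fold, beside 7.41% of all features lower at that threshold. The other 12 of the 16 on that list had no reads by library in at least 1 mutant, and their deposited means were lower in h2a.w-2.

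Besides HTA6, no gene of the chromatin lists was called, where 5.74% of all features were, a share that gives few calls in lists of this size. None of 12 other H2A and linker histone H1 genes was called, with log2 fold changes from -0.42 to 0.58. None of 26 DNA methylation and heterochromatin genes was called, with values from -0.85 to 0.55. The lowest of them was DML1 (ROS1), a DNA demethylase, at 497, 495 and 413 in h2a.w-2, against 810, 799 and 930 in h2a.w-1 and a mean of 897 in WT (adjusted p = 0.0049, limma). It passed the p threshold alone and its libraries did not overlap. None of 12 DNA damage response genes was called. Of 12 DNA replication genes, all lay below 0, from -0.77 to -0.23. The p threshold alone was passed by 4, among them MCM2 and MCM6, beside 7.41% of all features lower at that threshold.

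TEs and TE genes were summed by library. TEs took 1578, 1545 and 1479 RPM in the h2a.w-2-labelled libraries, against 1299, 1309 and 1482 in h2a.w-1, with 1208 to 1380 in WT. The mutants overlapped through h2a.w-1 library C, and h2a.w-2 was higher by 1.13 times (two-sided exact permutation p = 0.2). TE genes took 1705, 1619 and 1702 RPM in h2a.w-2, against 1487, 1438 and 1815 in h2a.w-1 (1.06 times, exact permutation p = 0.4).

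Of 98 TEs fitted, 8 were called higher and 0 lower, and of 98 TE genes 2 were higher and 1 lower, beside 3.85% higher and 1.89% lower over all features. AT5TE49855 was at 37.5, 60.7 and 50.8 in h2a.w-2, against 0.848, 0.944 and 7.91 in h2a.w-1, with a WT mean of 49.2. AT2TE27645 was at 47.4, 31.8 and 26.8 in h2a.w-2, against 0.848, 3.78 and 5.65 in h2a.w-1, with a WT mean of 0.281. One of these 2 was thus low in h2a.w-1 alone and the other high in h2a.w-2 alone. AT3TE51150 was at 270, 236 and 238 in h2a.w-2, against 83.1, 172 and 98.3 in h2a.w-1, and both mutants were above the WT mean of 35.6.

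The TE gene AT5G35935 was higher by 2.23, at 202, 159 and 252 in h2a.w-2, against 28.8, 32.1 and 90.4 in h2a.w-1. AT2G04460 was higher by 1.27. AT1G25430 was lower by 3.59, with 2, 1 and 2 reads in h2a.w-2, against 40, 24 and 18 in h2a.w-1 and 0, 4 and 2 in WT. The other TEs called, AT2TE07145, AT2TE19685, AT5TE50260, AT2TE74400 and AT1TE53350, had log2 fold changes of 1.34 to 3.77. AT5TE49855, AT2TE27645 and AT1G25430 were called whichever library was left out. Without library B labelled h2a.w-2, AT2TE19685, AT2TE74400 and AT1TE53350 were not called, nor was AT2G04460.

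Marker genes were compared because the libraries come from whole seedlings, where fewer cells of a type and less RNA per cell cannot be told apart. None of 10 root markers was called, and their summed normalized counts ranged from 954 to 1602 in h2a.w-2 and from 818 to 1405 in h2a.w-1. Of 7 fitted shoot and leaf markers, 1 was called higher, beside 3.85% of all features, and the median was -0.41. It was STM, which keeps the shoot meristem, at 134, 119 and 133 in h2a.w-2, against 51.7, 46.3 and 58.8 in h2a.w-1. GL2 (-0.72) passed the p threshold alone (adjusted p = 0.028, limma). MUTE (-0.75), ANT (-0.43), AS1 (-0.41), FMA (-0.01) and SPCH (0.33) did not pass it. The sum over the list ranged from 1108 to 1202 in h2a.w-2 and from 1239 to 1388 in h2a.w-1. Of 6 flower markers 1 was fitted, SEP3, at 0.64 and not called.

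Seed markers were low everywhere but in 2 libraries. Their sum was 8.05, 5.61 and 14.1 in h2a.w-2, against 23.7, 234 and 362 in h2a.w-1 and 3.65 to 5.90 in WT. The storage protein gene CRA1 carried most of it, with 3, 1 and 5 reads in h2a.w-2, against 19, 186 and 238 in h2a.w-1 (log2 fold change -4.79, adjusted p = 0.24, limma). Of the 11 markers, SESA1, SESA2 and SESA3 had 0 reads in h2a.w-2 and at most 2 in any h2a.w-1 library. OLEO2, of this list, and TIP3;1, a vacuolar channel of seeds, both among the members under the mean for fitting, had 1 and 0 reads in h2a.w-2, against 54 and 45 in h2a.w-1. Whether seed RNA in h2a.w-1 libraries B and C bears on the cold and abscisic acid genes was not tested.

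Reference genes bound the scale. PP2AA3 averaged 506 ± 48.8 in h2a.w-2 and 506 ± 19.8 in h2a.w-1, and TUB2 averaged 1871 ± 226 in h2a.w-2 and 1822 ± 223 in h2a.w-1 (SD, n = 3 each). ACT8 was higher in h2a.w-2 by 0.71 (adjusted p = 0.020, limma). The other 4 had no reads by library, and their deposited means were 1.55 (ACT2), 1.41 (UBQ10), 1.01 (GAPC1) and 0.893 (AT5G60390) times as high in h2a.w-2.

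Members that were not fitted pointed both ways. Of the 297 with few reads, 171 had the higher mean in h2a.w-2 and 126 in h2a.w-1. AT2G32470 had 22, 20 and 12 reads in h2a.w-2, against 0 in each h2a.w-1 library, at least 6.31-fold higher. AT2G43440 had 0 reads in h2a.w-2, against 19, 18 and 13 in h2a.w-1, at least 4.92-fold lower. RAS1 and AT1G33760 were high mainly in library B labelled h2a.w-2, with 46 and 37 reads. Among the 80 features without reads by library, with a larger group mean of at least 6976, 4 had a ratio of means above 2 and 2 under 0.5. AT3G15450 was 4.65 times as high in h2a.w-2, and CA1, the chloroplast carbonic anhydrase, 0.397 times.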

How the data were processed

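RNA-seq libraries from 10-day-old seedlings labelled h2a.w-2, h2a.w-1 and WT were used. According to the methods, rRNA-depleted paired-end reads were trimmed with Trim Galore 0.5.0, aligned to TAIR10 with STAR (2.7.0c in the submitters' processing notes, another release in the reporting summary), stripped of duplicates and of reads with several positions, and counted on Araport11 with htseq-count; the strand option is not given in the sources used here. The deposited mean normalized counts are a signal, reads divided by size factors and averaged over a genotype's libraries. The tables also hold the authors' own comparisons with WT (fold changes, errors, statistics and p-values), which were not used.

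The h2a.w-1 table was multiplied by 0.957, the median ratio of the WT means over 19675 features. Whole reads of each library were searched for in the group means up to 12000 and found once for 29881 of 29961 features (89.7% of all summed means in h2a.w-2, 88.4% in h2a.w-1). On simulated means 2000 of 2000 came out right. In place of a count model, limma 3.58.1 (voom, R 4.3.3) was fitted to these reads, with Benjamini-Hochberg adjustment. On simulated reads for 19591 features, 77 of 100 features changed 2-fold, 100 of 100 changed 4-fold and 8 unchanged ones passed adjusted p under 0.05 alone. All simulated features shared the same dispersion, which was not fitted to these libraries, so these counts do not give error rates here. TMM factors were computed by script. Single values were compared by two-sided exact permutation tests (scipy 1.17.1). Symbols, positions and classes came from RefSeq TAIR10.1, which held all 26870 gene identifiers; TE genes are loci listed there as pseudogenes. WT distances used log2(mean + 1).

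Members and lists were chosen with earlier results of these data known. Features are named by rule: H2A.W genes, CMT3 and reference genes; the 10 largest changes each way among called features that do not overlap; 6 region genes by level and 6 by change; up to 4 per list by p; called TEs; and the 3 most different unfitted members each way. Others were named after their values were seen. Reads carry no molecular identifiers, so floors (3 reads per library) and 95% exact intervals cover counting error only. Alternatives were other library scales, filters, models, WT in the fit and leaving out each library.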

Additional observations from a re-analysis of the deposited data

How the results depend on the processing

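No paired analysis was possible because the deposited columns carry no replicate numbers, and libraries A, B and C are names by size factor. Under the other scales, filters and models, WT in the fit included, the features called ranged from 862 (mean of at least 50) to 1213 (9 libraries), beside 1125, and those at adjusted p under 0.05 from 2815 to 3784, beside 2958. Leaving out 1 library gave 592 to 1136 called and 956 to 2837 at adjusted p under 0.05, with 358 to 777 higher and 234 to 421 lower. Over the listed genes 60 were called, and 31 to 56 when 1 library was left out (83 with the 3 lists added after the data were seen). The low values came without h2a.w-1 library A or B, and the cause was not tested. The median of Chromosome 1 region genes stayed between -0.00250 and 0.0248, and the run of chromosome 1 genes moved to 3 genes with an offset of 0.5. TE reads stayed higher in h2a.w-2 in every setting, and no named feature changed direction where it was called. Where libraries do not overlap, leaving 1 out cannot change the direction. Of 114 named or listed features called, 58 were called whichever library was left out. Motif shares in 500 bases were 8.47% of genes lower, 16.9% of those higher and 10.7% of all for GNATATNC. Depth limits features near 10 reads, and reads that fit several copies were discarded, which limits recent duplicates.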
